A study of Mus musculus with 6 samples.

Results

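The genes described here encode the proteins of the cytosolic ribosome. They were taken as the rows of the count table whose gene is protein coding in the GENCODE M21 annotation and whose symbol is that of a ribosomal protein of the large subunit (Rpl, Rplp) or the small subunit (Rps, Rpsa), without pseudogenes and without the Rps6k kinases. This gave 84 genes, 52 of the large and 32 of the small subunit, among 55450 rows. The choice used symbols and not measured values. A filter on low counts left 78 of them (47 large, 31 small) among 12520 tested genes. The 6 others were Rpl3l, Rpl10l, Rpl24, Rpl36al, Rpl39l and Rps10.

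The study compared whole mammary glands of virgin female mice of the FVB strain that were wild type (WT, 3 libraries) or carried a deletion of Hpn made with CRISPR/Cas9 (Hpn-/-, 3 libraries), to ask what the loss of hepsin, a cell-surface serine protease, does to gene expression. The WT libraries came from mice aged 2, 6 and 5 weeks (replicates 1, 2 and 3) and the Hpn-/- libraries from mice aged 6, 6 and 5 weeks. The glands were not sorted, so all cell types of the gland contribute, and fewer cells of a type cannot be told apart from less RNA per cell. Where nothing ties a library to its own animal, p-values measure only the spread between these libraries, which may be technical. Within each genotype this spread also includes the differences in age. Values for 6 libraries are given in the order WT replicates 1, 2 and 3, then Hpn-/- replicates 1, 2 and 3.

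A ribosome holds 1 copy of nearly every ribosomal protein, so cells keep the supply of these proteins close to equal and degrade those made in excess. In vertebrates their mRNAs begin with a run of pyrimidines (C and T in the DNA), the 5′ terminal oligopyrimidine motif, through which mTOR signalling and the protein Larp1 control their translation. Many of the genes carry small nucleolar RNAs, which guide the modification of ribosomal RNA, in their introns. In the mammary gland the demand for protein synthesis follows the growth of the ducts and, at lactation, milk production. A few genes have paralogs that are used in particular tissues, such as Rpl3l in striated muscle and Rpl10l and Rpl39l in mouse testis.

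The sequence at the start of transcription is shown for 8 of the genes, from 10 bases before the RefSeq start through the first 20 bases of the transcript on GRCm38.p6, 5′ to 3′, with the longest run of C and T in capitals. Rps27, Rpl39, Rpl5 and Rps16 have the smallest edgeR p-values of these genes between the genotypes, Rpl13a and Rpl7a were lower in Hpn-/- by their fitted values, Rpl27a has the longest run, and Rpl3l is the striated muscle paralog.
Rps27: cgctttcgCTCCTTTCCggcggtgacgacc
Rpl39: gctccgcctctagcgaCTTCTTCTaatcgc
Rpl5: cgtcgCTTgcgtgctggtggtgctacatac
Rps16: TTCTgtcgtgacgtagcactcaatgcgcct
Rpl13a: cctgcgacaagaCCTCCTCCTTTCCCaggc
Rpl7a: CTCTTCTTTCTTTCTCCagcagccgagcaa
Rpl27a: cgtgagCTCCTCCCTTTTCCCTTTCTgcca
Rpl3l: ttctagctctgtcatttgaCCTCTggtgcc
These lie at Rps27 chr3:90213629-90213658 (minus strand), Rpl39 chrX:37085203-37085232 (minus strand), Rpl5 chr5:107900518-107900547 (plus strand), Rps16 chr7:28350679-28350708 (plus strand), Rpl13a chr7:45128726-45128755 (minus strand), Rpl7a chr2:26910797-26910826 (plus strand), Rpl27a chr7:109519185-109519214 (plus strand) and Rpl3l chr17:24727816-24727845 (plus strand). The run is 20 bases in Rpl27a, 17 in Rpl7a, 14 in Rpl13a, 9 in Rps27, 8 in Rpl39, 5 in Rpl3l, 4 in Rps16 and 3 in Rpl5. The RefSeq starts lay 3 to 180 bases from the start of the main GENCODE transcript in these 8 genes, so a short run says only that these letters are not in this window.

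Of the 84 genes 64 matched a RefSeq promoter, with 76 starts in all. A run of 8 or more pyrimidines lay in the window of 24 starts (31.6%), against 11.2% of 20074 starts of 16458 other protein-coding genes, and the median longest run was 6 against 4 bases. In the 300 bases from 250 before to 50 after the start, on either strand, CCGGAAG, the core that factors of the ETS family bind, occurred at 35.5% of the starts against 11.8% of the others, and ATGGCG, which lies within the longer motif of the factor YY1, at 31.6% against 11.01%. TATAAA was found at 9.21% against 12.2% and CACGTG, the E-box bound by Myc, at 10.5% against 8.02%. The 84 genes lie on 19 chromosomes, and 30 of them (20 large, 10 small) hold 58 small nucleolar RNA genes in all within their bounds. Their main coding transcripts have a median length of 843 bases, from 345 for Rps27 to 5179 for Rps15a.

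The libraries held 10971661 to 18807615 counts. Loci derived from ribosomal RNA took 64.6% to 69.7% of them, and with 4 further loci (Mir6236, Lars2, Gm23935 and Gm15564) 78.0% to 84.3%, so that 1798932 to 3071401 counts remained for other genes. Hpn itself was at 12, 6 and 4 counts in WT and 4, 3 and 5 in Hpn-/- libraries, too few to check the labels. Markers of the gland's cell types were detected, with luminal epithelial markers at a summed 65.9 to 105 and adipocyte markers at 1282 to 1581 CPM (counts scaled to library size), and no gene of either list at 0. Skeletal muscle markers were at 17.5 to 1120 summed CPM, highest in WT replicate 1 and Hpn-/- replicate 1.

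The ribosomal protein genes held 27836, 18564, 22227, 28764, 23400 and 35602 counts, or 0.169% (WT replicate 2) to 0.235% (Hpn-/- replicate 1) of each library. As a share of the counts outside the ribosomal RNA and the 4 further loci they took 1.16%, 1.03%, 1.04%, 1.07%, 1.26% and 1.16%, with means of 1.08% ± 0.0701 in WT and 1.16% ± 0.0930 in Hpn-/- (SD, n = 3 each). By this second share Hpn-/- replicate 2 was highest and WT replicate 2 lowest, and the genotypes overlapped. In CPM with TMM scaling, which adjusts library sizes for differences in RNA composition, the large subunit summed to 1136, 1007, 1061, 1075, 1207 and 1185 (1068 ± 64.3 in WT, 1156 ± 70.6 in Hpn-/-). The small subunit summed to 846, 767, 804, 825, 938 and 890 (806 ± 39.8 in WT, 885 ± 56.7 in Hpn-/-). Both sums were lowest in WT replicate 2 and highest in Hpn-/- replicate 2, and both overlapped between the genotypes. The TMM factor was 1.24 in Hpn-/- replicate 1, which lowers its CPM, and 0.914 to 1.01 in the other libraries. The ratio of the large to the small subunit sum stayed between 1.29 and 1.34 in the 6 libraries.

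Levels differed widely between the genes. Levels between genes are given as CPM per kilobase of the main coding transcript. The median over the 84 genes was 25.1 CPM per kilobase, 22.5 for the large and 28.7 for the small subunit. In the large subunit Rplp1 was highest. Its level was 109, 75.8, 119, 89.0, 121 and 137 CPM per kilobase, lowest in WT replicate 2 and highest in Hpn-/- replicate 3. Rplp1 and Rplp2 encode the acidic proteins that form, on the base protein Rplp0, the stalk that recruits translation factors. Rplp0 was at 54.2 and Rplp2 at 40.3 CPM per kilobase on average. The next genes were Rpl41, whose product is among the smallest proteins known, at 66.5, Rpl8, whose protein reaches the peptidyl transferase centre, at 61.5, and Rpl4, which lines the exit tunnel, at 54.2. In these averages the ranges over libraries of Rpl8, Rplp0 and Rpl4 overlapped.

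In the small subunit Rps15 was highest, at 99.0, 88.5, 101, 92.1, 114 and 112 CPM per kilobase. Rps12 followed at a mean of 89.1, Rps27, a zinc finger protein, at 81.0 and Rps29 at 74.3. The ranges of Rps12 (76.6 to 101) and Rps27 (60.5 to 102) overlapped with that of Rps15. At the low end of the tested genes Rpl29 was at 1.77, Rpl22l1 at 2.06, Rpl13a at 3.00, Rpl7l1 at 3.44, Rps15a at 3.62 and Rpl35a at 3.86 CPM per kilobase. Among the low genes Rpl29, Rpl22l1 and Rpl35a rest on few reads, with 99, 92 and 160 counts over the 6 libraries. Rps15a held 1503 counts, spread over the longest transcript. Of coding transcripts ranked equally by the annotation the longest was taken as main, so a level per kilobase depends on this choice.

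**Figure D1:**
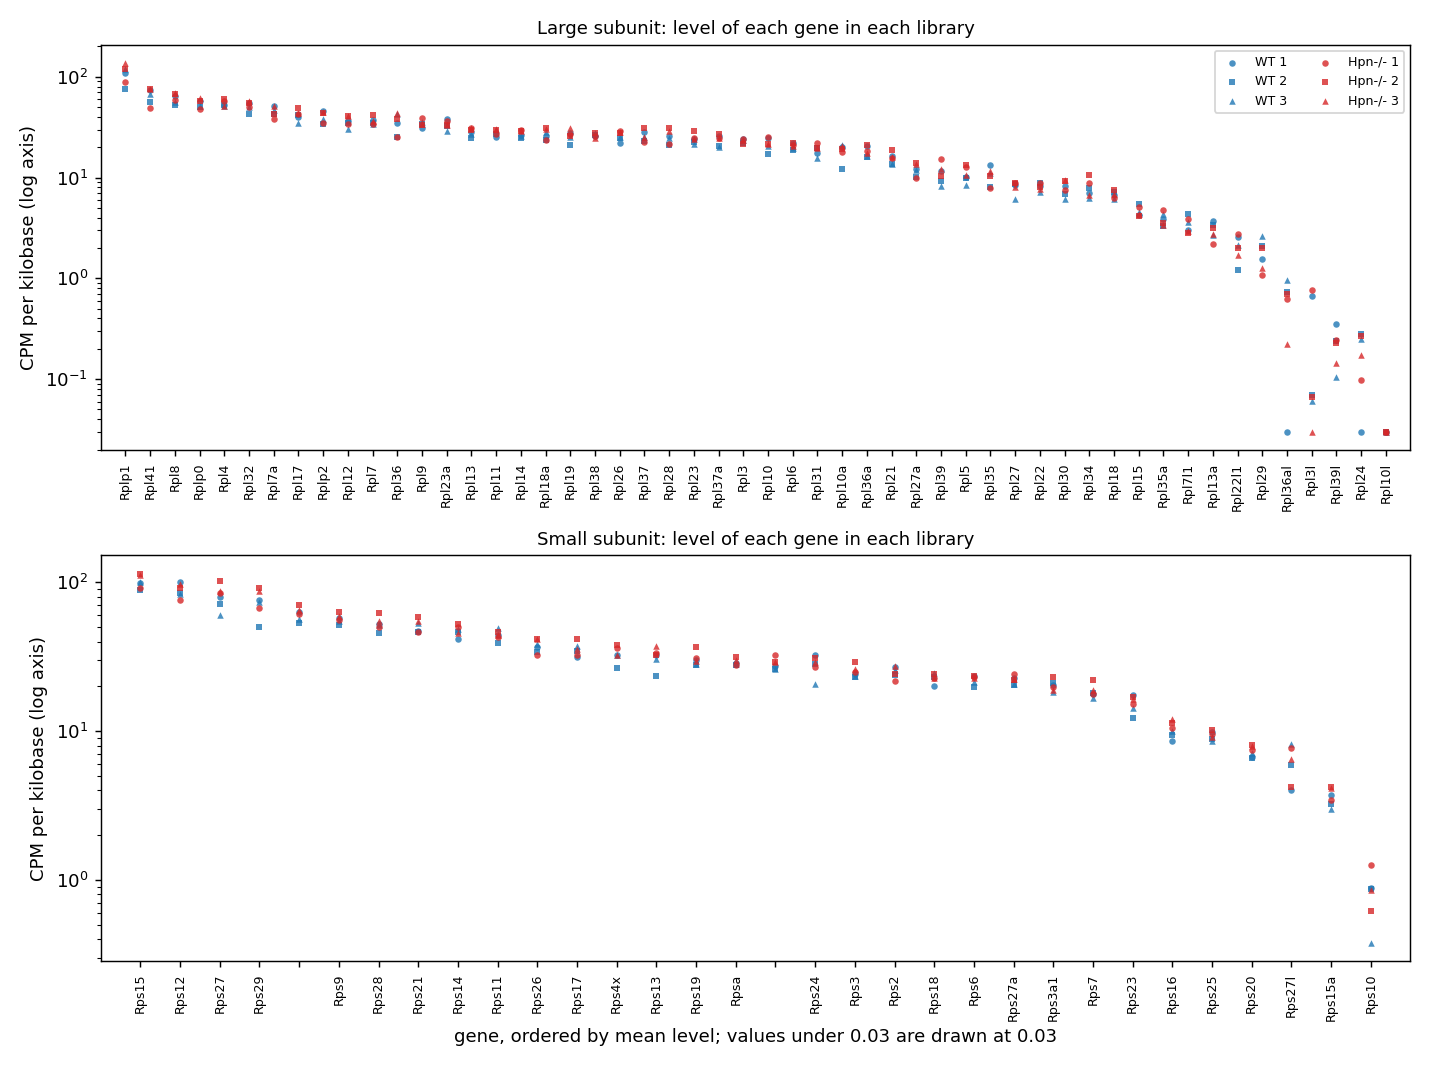
Level of each of the 84 genes in each library, in CPM per kilobase of the main coding transcript on a log axis, for the large subunit (top) and the small subunit (bottom), with WT libraries in blue and Hpn-/- libraries in red. Rplp1 and Rps15 lead with means of 108 and 101 CPM per kilobase, and the untested genes Rpl36al, Rpl3l, Rpl39l, Rpl24, Rpl10l and Rps10 lie under 1 on average; 2 small subunit genes are drawn without a name.

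Some of the low genes are covered by another annotated gene on the same strand. A second gene covered 71.5% of the main transcript of Rpl24, 63.1% of Rpl36al, 59.3% of Rpl13a and 53.6% of Rps10. Rpl24 held 9 counts over the 6 libraries, Rpl36al 21, Rps10 59 and Rpl13a 247, and every covering gene was at 0 in all libraries. Next came Rpl19, with 10.7% covered and 1607 counts. These shares are of the main transcript only. Over all annotated exons, 28 of the 84 genes overlap an exon of another gene on the same strand. No source used here says how the counting treated reads in such stretches, and its part in these values was not tested. The levels of Rpl24, Rpl36al, Rpl13a and Rps10 are therefore uncertain, and those of others of the 28 genes may be too.

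Sequence shared with pseudogenes is common in this family. The median gene had 55.2% of its 75-base windows, the length of a read, in no transcript of another annotated gene. In 18 genes the share was under 25% and in 14 over 90%, and 79 of the 84 genes shared a window with at least 1 annotated pseudogene, up to 64 of them for Rpl7a. The median level was 25.8 CPM per kilobase in the genes under 25% and 25.1 in the others, and over the 78 tested genes Spearman's rho between the level and the share was 0.04. These points share their libraries and this is a description. Rps27 had 4 unique windows of 271 (1.48%), yet held 2239 counts, while its near-identical retrogene Rps27rt held 1. Rps12, with 17.5% of its windows unique, was the second highest gene of the small subunit. Of 301 rows whose symbol is that of a ribosomal protein pseudogene (-ps), with Rps27rt among them, 71 had a count. Together they amounted to 0.175% to 0.281% of the counts of the ribosomal protein genes. Pseudogenes with other symbols were left out of this share. Rpl3-ps1 led them with 138 counts. Counts of genes with few unique windows remain uncertain, since reads could be split among copies.

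**Figure D2:**
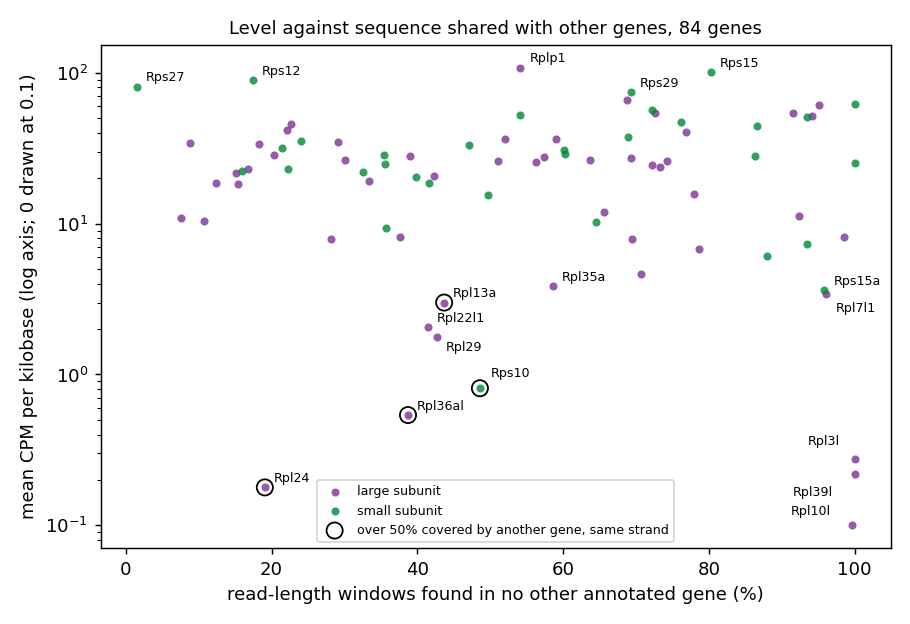
Mean level in CPM per kilobase (log axis) of the 84 genes against the share of their read-length windows found in no other annotated gene, in percent, with large subunit genes in purple and small subunit genes in green. Rps27 at 1.48% and Rps12 at 17.5% stand among the highest levels, and the circled genes Rpl24, Rpl36al, Rps10 and Rpl13a, covered on the same strand by another gene, lie at 3.00 CPM per kilobase or below.

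The genes varied little between libraries. The median SD of log2 CPM over the 6 libraries was 0.174 for the large and 0.141 for the small subunit, beside 0.226 over all tested genes and 0.241 over 76 genes of the mitochondrial ribosome. It was 0.121 for 18 translation factors and other genes with a terminal oligopyrimidine motif, and 0.164 for 10 chaperones and importers of ribosomal proteins. For 30 genes of ribosome biogenesis it was 0.178, and for 16 that control ribosomal protein synthesis 0.180. The small spread is therefore not particular to the ribosomal protein genes. Spread of this kind falls with depth, and the median standard error of the log2 fold change was 0.135 for the tested ribosomal protein genes against 0.192 over all tested genes. Rpl3, at 30.01 to 32.5 CPM in 5 libraries and 29.2 in Hpn-/- replicate 2, had the smallest SD (0.0636). The largest were those of Rpl29 (0.427), Rpl22l1 (0.376) and Rpl36 (0.349) in the large subunit and of Rps27l (0.413), Rps29 (0.315) and Rps27 (0.259) in the small subunit. For Rps29, a zinc-binding protein of the small subunit head, the CPM were 29.5, 19.4, 28.8, 26.3, 35.9 and 34.0, with WT replicate 2 apart on the low side.

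WT replicate 2 and Hpn-/- replicate 2, both of 6 weeks, held more of the lowest and of the highest values than any other library. In the small subunit 20 of 31 genes were highest in Hpn-/- replicate 2 and 16 were lowest in WT replicate 2. In the large subunit 16 of 47 were highest in Hpn-/- replicate 2, and 16 were lowest in WT replicate 2 and 14 in WT replicate 3. Centred on each gene's mean, the median of the large subunit was 0.04, -0.13, -0.07, 0.02, 0.10 and 0.06 in log2 CPM, and that of the small subunit -0.00, -0.12, -0.05, -0.01, 0.15 and 0.06. Hpn-/- replicate 1 had the widest spread of the large subunit, from -0.65 to 0.48. In it the deviation of the 78 genes had a Spearman's rho of -0.43 with the GC content of the transcript, against 0.32 in Hpn-/- replicate 3 and 0.28 in WT replicate 3. With transcript length the rho was 0.30 in WT replicate 2 and -0.31 in WT replicate 3, and between -0.11 and 0.02 in the other libraries.

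**Figure D3:**
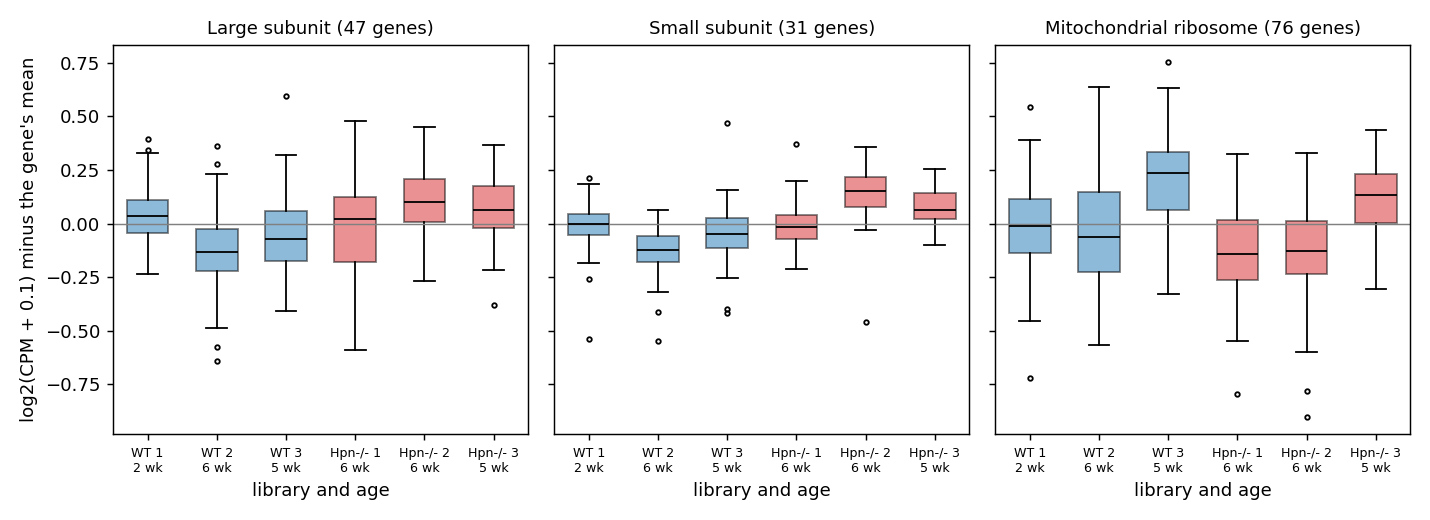
Log2(CPM + 0.1) minus the mean of each gene over the 6 libraries, for the large subunit (47 genes), the small subunit (31 genes) and the mitochondrial ribosome (76 genes), with the age under each library. Boxes give the quartiles, the line the median, whiskers reach 1.5 interquartile ranges and points lie beyond; the small subunit is lowest in WT replicate 2 and highest in Hpn-/- replicate 2, and the mitochondrial ribosome is highest in WT replicate 3.

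Between the genotypes no ribosomal protein gene differed in edgeR's quasi-likelihood test with Benjamini-Hochberg adjustment over all 12520 genes at a threshold of 0.05 (0 of 78, where 0.0160% of all tested genes, 2 genes, were called higher and 0.00% lower). DESeq2 and limma-voom called 0 of them too. Most fitted values nonetheless lay on one side. In the large subunit 39 of 47 genes had a log2 fold change above 0 in Hpn-/- (median 0.10), and in the small subunit 29 of 31 (median 0.12), where 50.9% of all tested genes did (median 0.00). At an unadjusted p under 0.05 there were 3 higher (Rps27, Rpl5 and Rpl39; 3.98% of all genes were) and 0 lower (2.90% of all genes). Without WT replicate 1, the 2 week library, the large subunit median was 0.18, and without WT replicate 2 it was 0.06. The small subunit median was 0.07 without Hpn-/- replicate 2. The count of 3 higher at an unadjusted p under 0.05 was 6 without WT replicate 1, where 2.64% of all tested genes were higher. It was also 6 without Hpn-/- replicate 1 (3.50% of all tested genes) and 0 without WT replicate 3 (2.52%). Without Hpn-/- replicate 2 there were 1 higher (2.08% of all tested genes) and 1 lower (1.78%).

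Rps27 (ENSMUSG00000090733.6, chr3:90212522-90213651 on GRCm38, minus strand) had the smallest adjusted p. It was at 27.3, 24.7, 20.9, 29.2, 35.3 and 30.4 CPM, and each Hpn-/- library lay above each WT library. The means were 24.3 ± 3.24 and 31.6 ± 3.24 CPM, with a log2 fold change of 0.38 (SE 0.137, 95% interval 0.09 to 0.67, edgeR adjusted p = 0.602). As given above, only 4 of its windows are unique, so reads of its copies could be among them. Rpl5 (ENSMUSG00000058558.12, chr5:107900502-107909005, plus strand), which with Rpl11 and the 5S ribosomal RNA can bind the p53 regulator Mdm2, was at 20.7, 20.5, 17.2, 25.8, 27.2 and 21.7 CPM. Its libraries did not overlap either (log2 fold change 0.35, SE 0.133, edgeR adjusted p = 0.617), and 7.51% of its windows are unique. An exon of Fam69a overlaps it on the opposite strand, with 349 counts beside 1770 for Rpl5.

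Rpl39, a small protein of the exit tunnel, was at 7.12, 5.64, 5.03, 9.38, 6.42 and 7.52 CPM, with WT replicate 1 above Hpn-/- replicate 2, so the groups overlapped. The log2 fold change was 0.39 (SE 0.183, edgeR adjusted p = 0.721) and 92.4% of its windows are unique. Rps16, whose C-terminal tail reaches the tRNA in the P site, was at 9.47, 10.5, 11.1, 11.6, 12.7 and 13.3 CPM without overlap of the groups (log2 fold change 0.28, edgeR adjusted p = 0.767). Further values were 0.30 for Rpl30 and Rps29, 0.26 for Rps13, 0.23 for Rpl26 and 0.22 for Rps4x, with adjusted p of 0.800 to 0.839 in edgeR.

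On the other side Rpl29 had the lowest value. It was at 1.14, 1.53, 1.93, 0.793, 1.47 and 0.932 CPM, 12 to 23 counts per library, and the groups overlapped. Its log2 fold change was -0.55, with a 95% interval of -1.28 to 0.17 (edgeR adjusted p = 0.839). Rpl13a, which in human monocytes also takes part in a complex that silences inflammatory mRNAs, was at 3.92, 3.54, 2.85, 2.31, 3.30 and 2.91 CPM (log2 fold change -0.29, SE 0.221). Rpl7l1 was at -0.18, Rpl35 at -0.12 and Rpl7a at -0.10 in the large subunit, and Rps2 at -0.06 and Rps12 at -0.02 were the only tested genes of the small subunit below 0. None of these 7 genes had an interval that left out 0. Over the tested genes the intervals reached from -1.28 (Rpl29) to 0.84 (Rpl22l1).

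**Figure D4:**
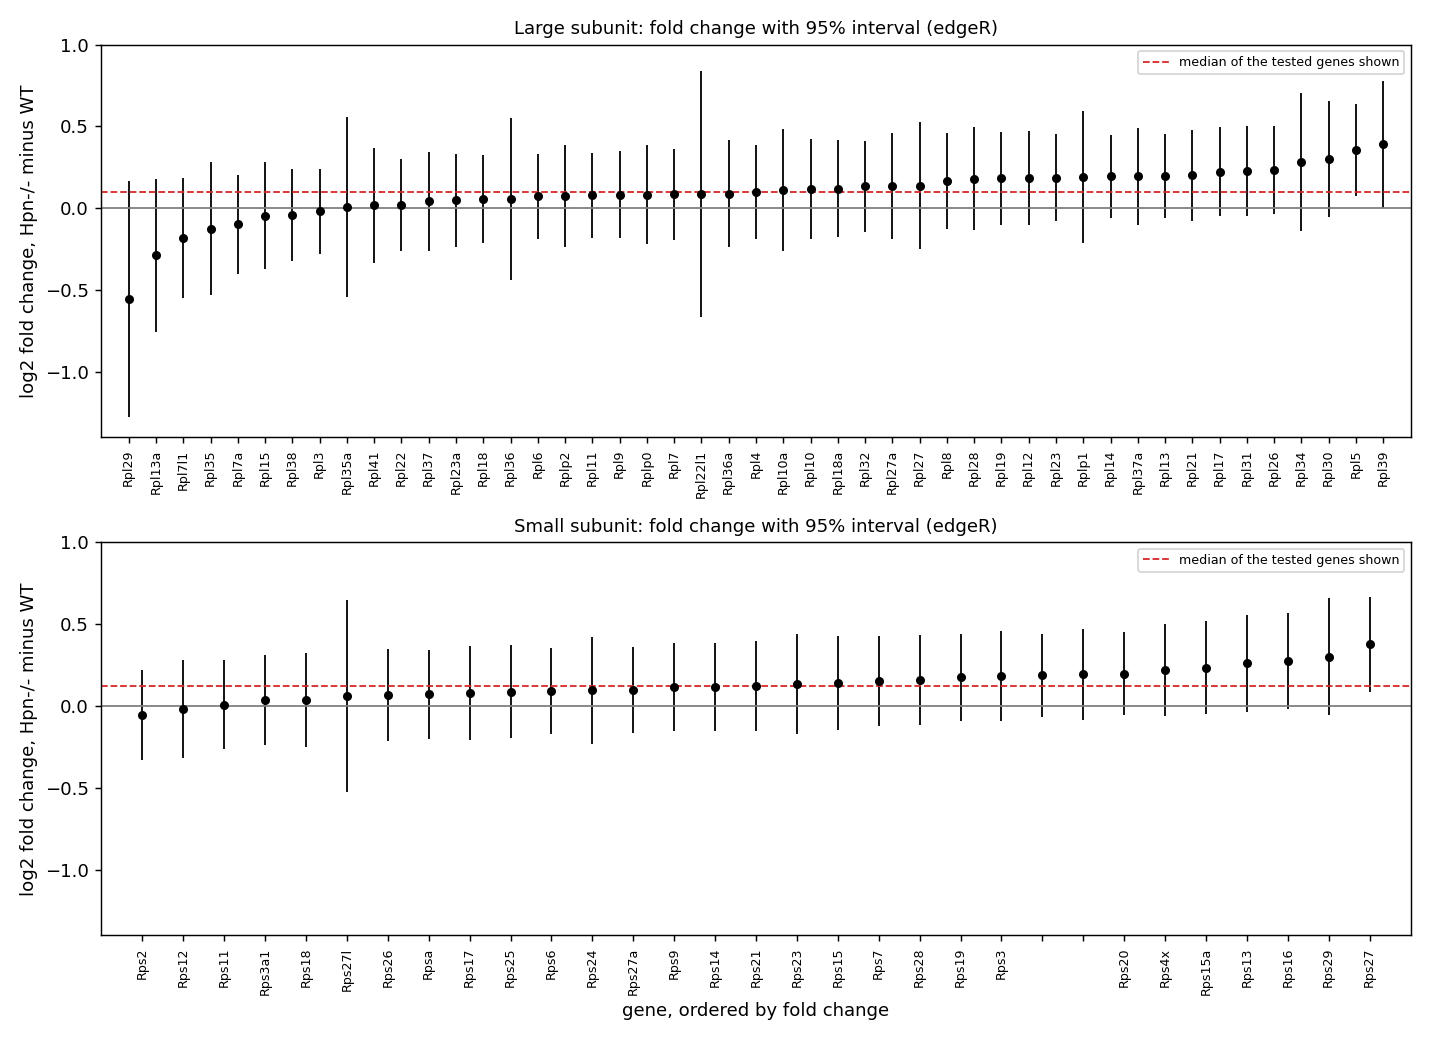
Log2 fold change of Hpn-/- against WT with the 95% interval from edgeR for each of the 47 tested genes of the large subunit (top) and the 31 of the small subunit (bottom), ordered by value, with the median dashed. Of the large subunit 39 and of the small subunit 29 values lie above 0, and the intervals of Rpl5, Rpl39 and Rps27 alone leave out 0; 2 small subunit genes are drawn without a name.

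In 12 of the 78 genes every Hpn-/- library lay above every WT library, where 5.94% of all tested genes did, and in 0 the reverse held, where 5.04% did. The 6 of the large subunit were Rpl5, Rpl13, Rpl14, Rpl17, Rpl23 and Rpl26, and the 6 of the small subunit included Rps3, Rps13, Rps16, Rps20 and Rps27. Rpl26, which sits by the exit of the tunnel, was at 13.4, 15.01, 15.4, 17.4, 16.6 and 17.4 CPM. Rps3, which forms part of the entry of the mRNA channel, was at 46.1, 44.1, 44.9, 47.8, 55.9 and 49.9 CPM and has only unique windows (log2 fold change 0.18, SE 0.129, edgeR adjusted p = 0.862). These genes share their libraries and are not independent counts of the same comparison.

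Genes picked for their roles had values of the same size. Rps6, whose phosphorylation by S6 kinase is a common readout of mTOR activity, was at 20.7, 17.3, 18.9, 20.2, 20.7 and 19.9 CPM (log2 fold change 0.09, 95% interval -0.17 to 0.35). Rpl11 was at 0.08 and Rpl23, which also binds Mdm2, at 0.19. Rps19 and Rps14, the human counterparts of which are lost or mutated in inherited or acquired anaemias, were at 0.18 and 0.12. Rpsa, also known as the precursor of the laminin receptor, was at 0.07, and the stalk genes Rplp0, Rplp1 and Rplp2 were at 0.08, 0.19 and 0.07. All these adjusted p lay at 0.862 or above in edgeR.

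The ages differ between the genotypes, and only 5 and 6 week libraries exist in both. At 6 weeks the median log2 ratio to WT replicate 2 was 0.12 for Hpn-/- replicate 1 (53 of 78 genes higher, 67.9%) and 0.27 for Hpn-/- replicate 2 (68 of 78, 87.2%), beside 48.6% and 50.6% of all tested genes. At 5 weeks the median ratio of Hpn-/- replicate 3 to WT replicate 3 was 0.11 (63 of 78 higher, 80.8%, beside 49.9% of all tested genes). Both 6 week ratios share WT replicate 2, and each age has 1 WT library. The WT libraries also differed among themselves. WT replicate 1 of 2 weeks had 58 of 78 genes above WT replicate 2 (median log2 ratio 0.15) and 56 of 78 above WT replicate 3 (0.10), and WT replicate 3 had 53 above WT replicate 2 (0.07). With age as a covariate in the 5 and 6 week libraries the medians were 0.18 for the large and 0.16 for the small subunit, and 0 genes were called. In that fit 10 of the 78 genes were higher at an unadjusted p under 0.05, beside 3.19% of 12835 tested genes, and 0 were lower, beside 2.85%.

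Markers of T and B cells, fibroblasts and proliferation are given beside these values, and edgeR called 0 of these genes. At an unadjusted p under 0.05, 6 of 9 T and B cell markers were higher, where 3.98% of all tested genes were. Lower were 3 of 5 fibroblast and 4 of 5 tested proliferation markers, where 2.90% of all tested genes were. All 9 tested T and B cell markers had fitted values above 0. Their summed CPM was 52.3 to 64.8 in WT and 67.0 to 89.4 in Hpn-/-, highest in Hpn-/- replicate 2 as the ribosomal protein genes were. Luminal epithelial markers were highest in that library too, at 105 summed CPM, with 6 of 8 fitted values above 0 and 2 below. Of 5 fibroblast markers 4 had values below 0 (2116 to 2897 against 1502 to 2318 summed CPM), as had 5 of 5 tested proliferation markers (31.1 to 48.1 against 22.3 to 35.0). No gene of the T and B cell, fibroblast and proliferation lists was at 0 in all libraries. The part of these markers in the values of the ribosomal protein genes was not tested.

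The paralogs were far below their counterparts per kilobase, with Rpl22l1 the closest. Rpl22l1 was at 2.06 beside 8.17 CPM per kilobase for Rpl22, or 25.2% of it. Rpl7l1 stood at 9.46% of Rpl7, Rps27l, which p53 induces, at 7.53% of Rps27, Rpl36al at 2.93% of Rpl36a, Rpl39l at 1.96% of Rpl39 and Rpl3l at 1.18% of Rpl3. Another gene covers 63.1% of the transcript of Rpl36al, and Rps27 has 1.48% unique windows, so the shares of Rpl36al and Rps27l are uncertain. Rpl10l, with 99.7% of its windows unique, had 0 counts in the 6 libraries, beside 1504 for Rpl10. Rps27l was at 1.99, 2.96, 4.11, 3.83, 2.11 and 3.26 CPM, with WT and Hpn-/- libraries mixed when ranked by value (log2 fold change 0.06, SE 0.276). Rpl22l1 held 20, 7, 14, 23, 12 and 16 counts, and its log2 fold change of 0.09 had an SE of 0.357.

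Rpl3l (ENSMUSG00000002500.15, chr17:24727820-24736143, plus strand) was found mainly in 2 libraries. It held 13, 1, 1, 16, 1 and 0 counts, and the high ones were WT replicate 1 and Hpn-/- replicate 1. The skeletal muscle markers, 14 genes, summed to 730, 123, 55.4, 1120, 277 and 17.5 CPM and were highest in those libraries too. None of them was at 0 in all libraries. Rpl3l replaces Rpl3 in the ribosomes of skeletal and heart muscle, and all of its windows are unique. Rpl3 was at 32.5, 30.01, 31.9, 32.4, 29.2 and 31.6 CPM, with those 2 libraries at the upper end.

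**Figure D5:**
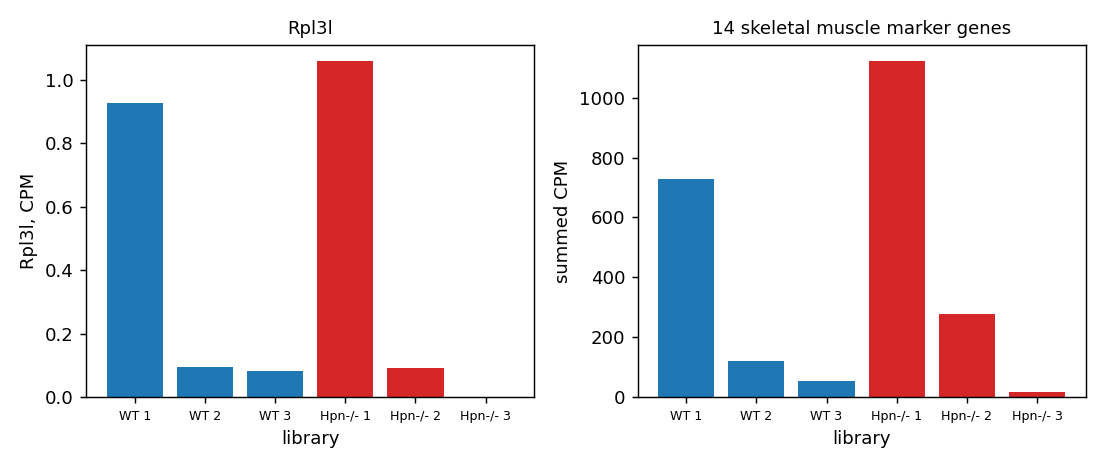
CPM of Rpl3l (left) and the summed CPM of 14 skeletal muscle markers (right) in each library, as bars from 0, with WT in blue and Hpn-/- in red. Both are highest in WT replicate 1 and Hpn-/- replicate 1, where Rpl3l held 13 and 16 counts and the markers summed to 730 and 1120 CPM.

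Other genes of the pathway, from lists chosen for their roles, gave 0 calls by edgeR. Of 18 translation factors and other genes with a terminal oligopyrimidine motif 10 were above and 8 below 0 (median log2 fold change 0.01), with Eef1a1, the most abundant, at 0.10, Eif3f at 0.17 and Naca at 0.17. Of 30 genes of ribosome biogenesis 14 were above and 16 below 0 (median -0.03), with the nucleolar protein gene Ncl at -0.13, Nop14 at 0.32 and Rrp12 at -0.28. Of 16 tested genes that control ribosomal protein synthesis 10 were above 0 (median 0.06), with Max, the partner of Myc, at 0.27, Tsc1, which restrains mTOR, at 0.17 and Eif4ebp2 at 0.02. Of 10 chaperones and importers of ribosomal proteins 6 were below 0 (median -0.10), with Bccip at -0.37 and Kpnb1, a nuclear import receptor, at -0.25. Rack1 and Fau, which encode small subunit proteins outside the symbol rule, were at 0.14 and 0.08. Of all tested genes 50.9% were above 0. At an unadjusted p under 0.05 these lists held 1 gene, Bccip, which was lower, as were 2.90% of all tested genes.

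The mitochondrial ribosome is encoded by its own set of nuclear genes and translates the mRNAs of the mitochondrial genome. Of its 76 tested genes 55 had values below 0 in Hpn-/- and 21 (27.6%) above, where 50.9% of all tested genes were above. The median log2 fold change of the set was -0.08, and edgeR called 0 of its genes. At an unadjusted p under 0.05, 1 was higher, where 3.98% of all tested genes were, and 2 were lower, where 2.90% were. Mrps34 was at 7.19, 7.84, 9.81, 5.35, 5.78 and 6.64 CPM (log2 fold change -0.48, edgeR adjusted p = 0.569), and Mrpl50 at 0.46. Mrpl12, the most abundant, was at -0.09. By library the set summed to 366, 369, 434, 337, 344 and 404 CPM, highest in the 5 week libraries, WT replicate 3 and Hpn-/- replicate 3, where the cytosolic sums were not. The difference between the cytosolic and mitochondrial sets was not tested.

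Across the 78 tested genes the log2 fold change had a Spearman's rho of -0.03 with transcript length, 0.06 with the share of unique windows and -0.11 with GC content. These genes share their libraries, so the coefficients only describe them. The level per kilobase had a rho of -0.38 with the transcript length it is divided by. On the opposite strand 19 of the 84 genes have an exon that overlaps an exon of another gene, and in 13 the other gene's counts exceed 10% of the gene's own, as for Rps18, with 1191 counts in Vps52 beside 1021. No source used here states the strand setting of the counting, so these 13 values are uncertain.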

How the data were processed

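The authors deposited raw read counts per gene for 6 libraries of rRNA-depleted total RNA, made with a directional kit and read as single ends of 75 bases per the labels' protocols. STAR 2.6.0c, featureCounts, Trimmomatic, bcl2fastq and DESeq2 are listed, with GRCm38, in the submitters' processing notes. The strand setting of the counting and the treatment of multi-mapping reads are settings not given in the sources used here. GENCODE M21, which held all 55450 identifiers, gave symbols, lengths and the transcripts that windows were compared with.

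Groups follow the genotype in the library titles. Genes passed edgeR's filterByExpr (minimum count 10, minimum total 15) and were tested with edgeR 4.0.16 (R 4.3.3; TMM, robust quasi-likelihood, Benjamini-Hochberg over all 12520 genes), 3 against 3. CPM use TMM library sizes. Alternatives were other scalings and filters, DESeq2 1.42.0, limma-voom (limma 3.58.1), a replicate block, age as a covariate, rRNA loci left out and each library left out; leaving out the 4 further loci was chosen after seeing the data. On simulated counts with 12520 genes the test of Hpn-/- against WT recovered 28% of 1.5-fold, 74% of 2-fold, 90% of 3-fold and 100% of 4-fold changes. Library pairs within a group differed by more than sampling noise (6.72 to 32.1 chi-square units per degree of freedom).

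The genes, gene lists and tests were chosen with earlier results of these data known. Genes named with values are the most and least abundant, those of smallest p and largest SD, the paralogs with their counterparts (no row matched Rps4l) and genes picked for their roles; others named in counts, overlaps or extremes were chosen after their values were seen. Some genes are counted but not reported by name here. Promoter sequences are those of RefSeq on GRCm38.p6.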

Additional observations from a re-analysis of the deposited data

How the results depend on the processing

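In all 16 alternatives 0 ribosomal protein genes were called, and both subunit medians stayed above 0, at 0.06 to 0.18 for the large and 0.07 to 0.16 for the small subunit. The all-gene median stayed between -0.02 and 0.01. The small subunit median, 0.12 in the reported fit, was 0.07 without Hpn-/- replicate 2 and 0.16 without Hpn-/- replicate 1. Against 2 genes called higher and 0 lower, there were 76 and 24 with no count filter, 8 and 0 with DESeq2, 0 and 0 with limma-voom, 8 and 1 with a replicate block and 3 and 1 with age as a covariate. With age as a covariate the large subunit median was 0.18. Leaving out 1 library each gave 0 to 89 genes higher and 0 to 111 lower, the most without Hpn-/- replicate 3 (89 and 111), and a large subunit median of 0.061 (without WT replicate 2) to 0.18 (without WT replicate 1). The count of ribosomal protein genes higher at an unadjusted p under 0.05, 3 in the reported fit, was 0 to 6 with a library left out and 10 with age as a covariate. Of all tested genes 3.98% were higher in the reported fit, 2.08% to 6.42% with a library left out and 3.19% with age as a covariate.

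Libraries of equal replicate number had correlations of deviations of 0.167, 0.0732 and 0.368, each the highest for its Hpn-/- library. WT replicate 2 correlated more with Hpn-/- replicate 1 (0.127) than with its own number. Equal numbers also share an age in replicates 2 and 3 and high muscle markers in replicate 1. These values therefore do not decide whether the numbers pair the libraries. Under the replicate block 0 ribosomal protein genes were called.

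Of 640 log2 fold changes of named genes under the alternatives 606 kept their sign and 34 did not; none of the 34 was called in either fit and the cause was not tested. With upper quartile scaling Rpl22 was at -0.000702, Rpl35a at -0.00982 and Rpl41 at -0.00455. With limma-voom Rpl35a was at -0.00520 and Rpl41 at -9.3e-06, and with the replicate block Rpl41 was at -0.00127. With age as a covariate Rpl3 was at 0.0141, Rpl35a at -0.00366, Rpl7a at 0.00178, Rps12 at 0.0861, Rps2 at 0.00896 and Rps27l at -0.142. With libraries left out in turn the ranges were -0.0008401 to 0.26 for Rpl10, -0.06906 to 0.08229 for Rpl22, -0.16 to 0.34 for Rpl22l1, -0.06297 to 0.02444 for Rpl3, -0.18 to 0.11 for Rpl35a, -0.14 to 0.24 for Rpl36, -0.08447 to 0.18 for Rpl41, -0.0008997 to 0.13 for Rpl7, -0.01572 to 0.20 for Rplp2, -0.11 to 0.07026 for Rps12, -0.15 to 0.01074 for Rps2 and -0.19 to 0.35 for Rps27l.

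Depth limits precision, with 1798932 to 3071401 counts per library outside the ribosomal RNA and 4 further loci.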

Other observations

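Rps27 and Rps3 give a contrast in what a count can be assigned to. All 1834 read-length windows of Rps3 occur in no other annotated gene, while Rps27 has 4 of 271 and shares the rest with 3 pseudogenes and the retrogene Rps27rt. Rps27 stood at 81.0 and Rps3 at 25.2 CPM per kilobase, so in this pair few unique windows did not go with a low level per kilobase. In CPM, not divided by transcript length, Rps3 was above Rps27 in every library. Rpl7a shares windows with 64 pseudogenes and was at 45.5 CPM per kilobase. Rpl9, with 8.73% unique windows, was at 34.5 CPM per kilobase and had an SD of log2 CPM over the 6 libraries of 0.109.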
